A study of Homo sapiens with 5 samples.

Results

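Protein-folding machinery of the cytosol and its helpers were examined in RNA captured with miR-25-3p from LX-2 cells. The families were the chaperonin TRiC, prefoldin, HSP70 and HSP110 chaperones, J-domain proteins, BAG proteins, small heat shock proteins and cochaperones of HSP90. Members were taken by gene symbol alone, which found 69 genes (89 probes) among the 9268 named genes on the arrays. The same symbols match 90 protein-coding genes of RefSeq, of which 67 were measured; the other 2 members, CCT6P1 and HSPA7, are transcribed pseudogenes. The 23 unmeasured genes, among them BAG1, AHSA1, HSPA2, HSPB8 and HSPBP1, were not analysed here. The symbol rule also takes in genes whose products work elsewhere, such as the mitochondrial chaperonin genes HSPD1 and HSPE1, the mitochondrial J-domain genes DNAJA3, DNAJC15 and DNAJC19, and the endoplasmic reticulum membrane genes DNAJB12, DNAJB14 and DNAJC1, while the cytosolic HSP90 genes HSP90AA1 and HSP90AB1 fall outside it.

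LX-2 is a cell line of activated human hepatic stellate cells, the matrix-forming cells of the liver. All cells had received 50 pmol of a biotin-labelled miR-25-3p duplex with Lipofectamine and were lysed after 24 hours, so the controls carried the duplex too. The groups were PD miR-25, RNA captured on streptavidin beads (pull-down, 3 arrays), and Control, whole cell lysate (2 arrays), hybridized to Illumina HT-12 bead arrays. The extraction text of the controls repeats the bead step, and only the design text and the methods name them as lysate. The study describes 3 replicates per group and left out a control sample for low probe signal. No capture with an unrelated miRNA duplex is among the groups.

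The array medians lay between 9.01 and 9.03. Stellate cell and myofibroblast markers were measured for 10 of 13 genes, with levels from 7.70 to 14.33 on the log2 scale. Limma called 0 of them in either direction, with 7.1% of all genes called higher and 6.72% lower. VIM, the intermediate filament vimentin, was at 14.05 to 14.33. LRAT, DES and LUM of that list were not measured. Hepatocyte markers (2 of 5 measured, ALB and SERPINA1) lay at 7.79 to 9.23, the macrophage marker CD68 (1 of 3 measured) at 10.46 to 12.25, and no endothelial or epithelial marker was measured. Nothing in the labels says whether arrays of a group came from separate cultures; the study describes independent biological replicates, and p-values measure the spread between these arrays.

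Newly made proteins are met by a relay of chaperones. Prefoldin takes up unfolded actin and tubulin and hands them to TRiC (also called CCT), a barrel of paralogous subunits that folds them inside its cavity. HSP70 proteins bind exposed hydrophobic stretches in an ATP cycle that J-domain proteins start and nucleotide exchange factors (HSP110 and several BAG proteins) reset. STIP1 passes clients on to HSP90, whose cycle CDC37 and PTGES3 adjust. Many of these genes share heat shock elements, the promoter sites of heat shock factor. Argonaute loaded with a miRNA finds its target mRNAs mainly through the miRNA seed, bases 2 to 8.

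The mature miRNA is shown because its seed is what the pull-down was meant to read out. The biotin-labelled strand printed in the study's methods has the same seed but carries the further bases AG before the biotin. Mature miR-25-3p (RefSeq, GRCh38.p14, chr7:100093571-100093592, minus strand) has 22 bases, with the seed in capitals, and 5 other mature human miRNAs of the table carry the same seed, of which miR-92a-3p is printed beside it (chr13:91351361-91351382, plus strand).
miR-25-3p: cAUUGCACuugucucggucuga
miR-92a-3p: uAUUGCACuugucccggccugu
Transcript sequences were not used here, so seed matches in the chaperone mRNAs were not analysed here.

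Heat shock elements are shown because they are the regulatory sequence the members are known for. The letters GAANNTTCNNGAA or TTCNNGAANNTTC (3 alternating units, 2 bases apart, which covers both strands) were searched in RefSeq promoter windows of GRCh38.p14 that reach from 250 bases before to 50 bases after each start. They occurred in 5 of 79 member windows (6.33%) and in 172 of all 35116 windows (0.49%), and by gene in 5 of 60 members with a window (8.33%) against 0.608% of all genes; 9 members had no window. The 5 genes were HSPA6, HSPA8, HSPD1, DNAJB6 and DNAJA1, the last with its match just after the start. Each match before a start is printed in 30 bases on the gene's strand with the match in capitals, followed by its distance to the start.
HSPA6, chr1:161524458-161524487, plus strand, 74 bases before the start: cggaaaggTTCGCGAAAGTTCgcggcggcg
HSPA8, chr11:123062170-123062199, minus strand, 55 bases before the start: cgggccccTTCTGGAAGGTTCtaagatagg
HSPA8, chr11:123062345-123062374, minus strand, 230 bases before the start: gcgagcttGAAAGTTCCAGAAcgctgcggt
HSPD1, chr2:197500061-197500090, minus strand, 245 bases before the start and overlapping a second match at 240: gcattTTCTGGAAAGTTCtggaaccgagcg
DNAJB6, chr7:157336865-157336894, plus strand, 131 bases before the start: agagccgaGAACCTTCGCGAAggtggggcg
These are letter matches in fixed windows and describe no binding in these cells.

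Values below are normalized expression on a log2 or log2-like scale, pull-down arrays 1, 2 and 3 first and control arrays 1 and 2 after them, and a difference is pull-down minus control. Tests are limma over all 14747 probes with Benjamini-Hochberg adjustment, and a gene is called at an adjusted p under 0.05. The direction is that of the sample titles. It opposes the study's text, which treats a handful of selected genes as enriched by the pull-down, although the legend of its volcano plot selects genes by a negative fold change of pull-down against lysate, the direction seen here. On the deposited values those genes were lower in the pull-down in 6 of 6 cases, among them LEP by a difference of -1.89 and ADAM17 by -0.65. Which wording holds was not tested, and if the titles were exchanged every sign below would turn.

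Chaperone genes as a whole stood close to 0. The median difference of the 69 genes was 0.00, against 0.04 over all genes, with a range from -1.12 to 0.93. Positive differences numbered 35 and negative 34, beside 5069 and 4199 over all genes. The split of the members became 31 and 38 after quantile normalization and 30 and 39 after cyclic loess. Differences within 0.5 in either direction were seen in 55 members (79.7%) and in 6942 of all 9268 genes (74.9%). The limma test called 4 members higher (5.8%, with 7.1% of all genes called higher) and 3 lower (4.35%, with 6.72% of all genes called lower). With at least a 2-fold change the counts were 0 higher (2.41% of all genes) and 1 lower (1.45%, with 3.02% of all genes). At an unadjusted p under 0.05 there were 11 members higher (15.9%, with 16.5% of all genes) and 6 lower (8.7%, with 14.1% of all genes). In 16 members (23.2%) all pull-down arrays lay above both controls, as in 27.8% of all genes, and in 10 (14.5%) all lay below, as in 21.4% of all genes. The shares of members called or separated were thus near or under those of all genes. Leaving out pull-down array 2, control 1 or control 2 left 0 members called in either direction, and without pull-down array 3 the counts were 4 higher and 1 lower, DNAJC7 and DNAJC28 losing their calls.

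**Figure D1:**
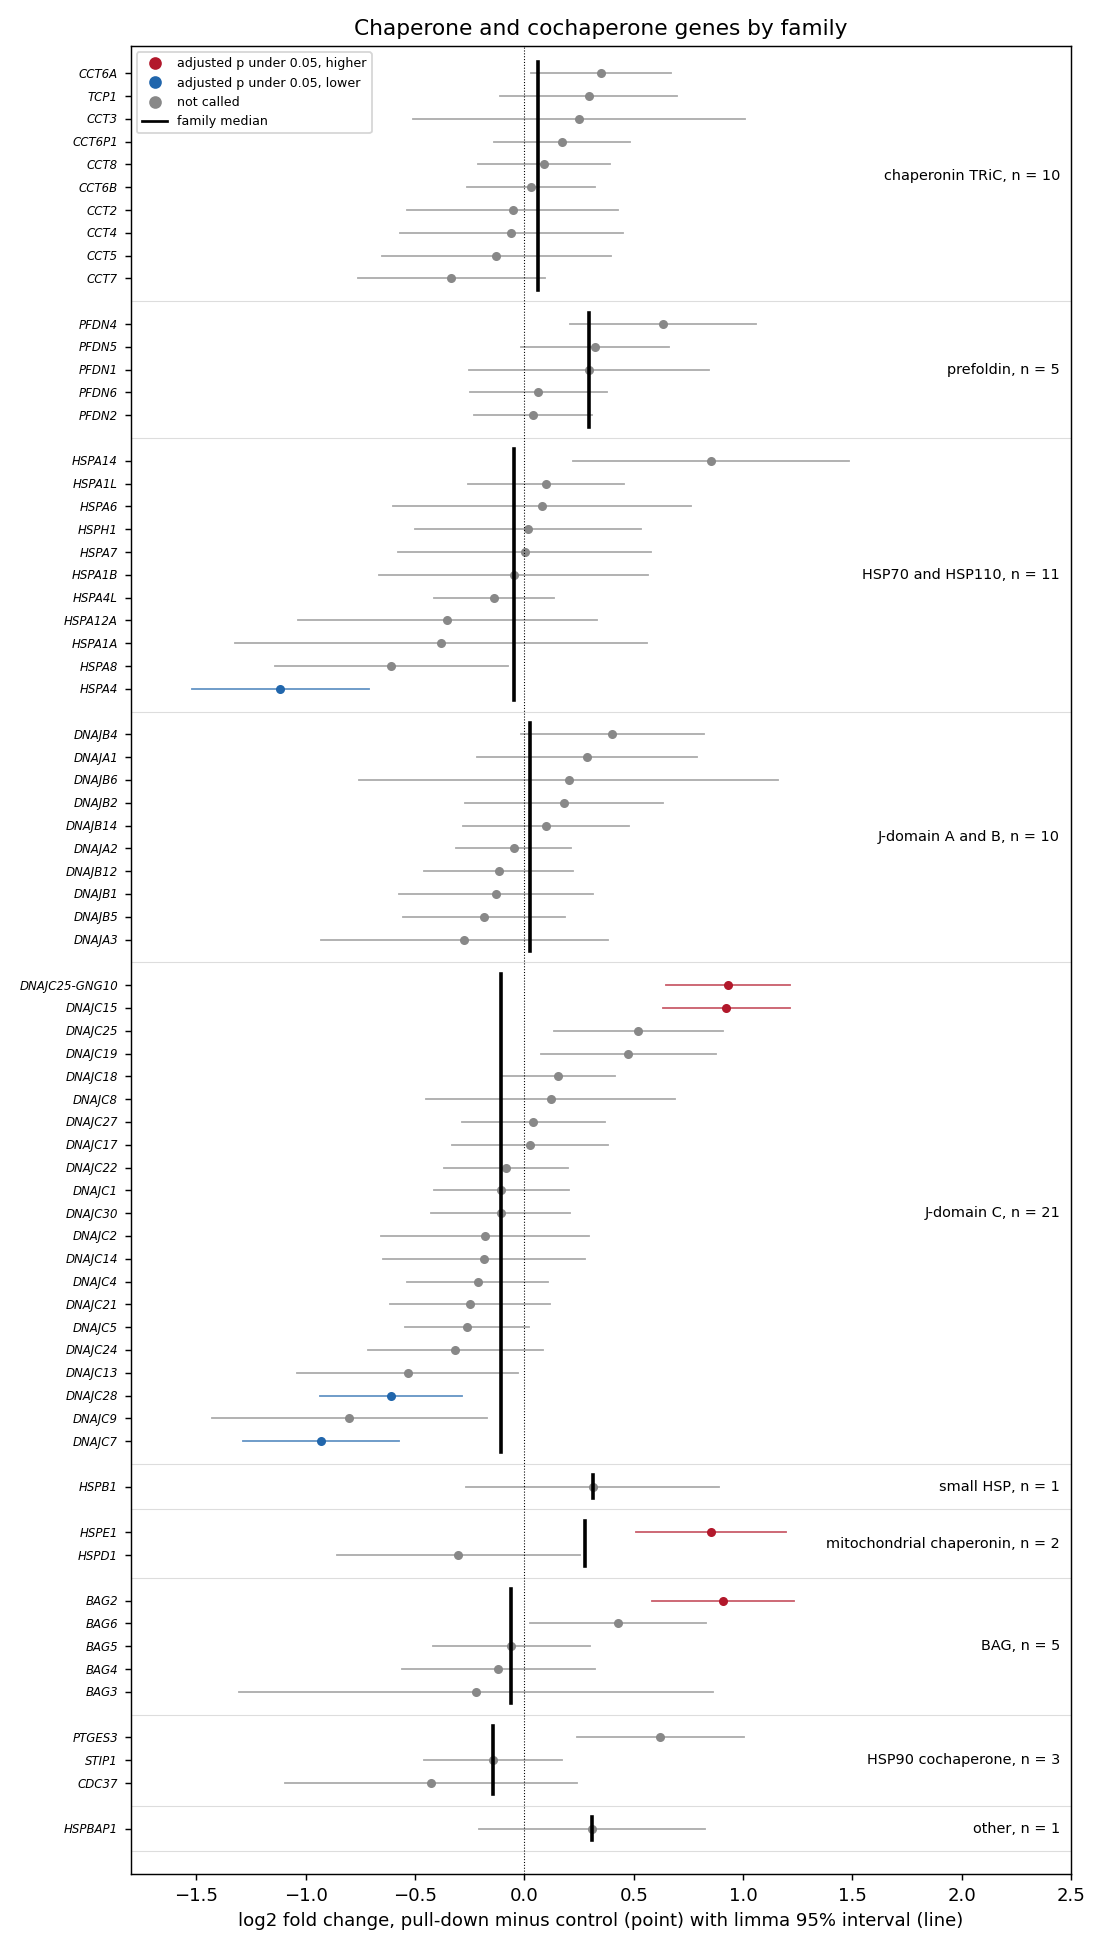
Each point is the log2 difference of a chaperone gene, pull-down minus control (3 and 2 arrays), with its 95% limma interval as a line, sorted within families; the vertical bar is the family median and colour marks genes called at an adjusted p under 0.05. The 4 higher and 3 lower genes lie in the HSP70, J-domain C, mitochondrial chaperonin and BAG families, and the TRiC and prefoldin families hold none.

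None of the TRiC genes passed the test, with 7.1% of all genes called higher and 6.72% lower. Its 9 subunit genes and CCT6P1 had a median difference of 0.06 and a range from -0.33 to 0.35, with 6 positive under the deposited scaling and 4 positive under cyclic loess, where the median was -0.02. At an unadjusted p under 0.05 there was 1 of 10, CCT6A, as higher, with 16.5% of all genes higher at that level. 

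Within the ring, CCT6A lay highest, at 10.46, 10.62 and 10.47 against 10.29 and 10.05, a difference of 0.35 ± 0.13 (SE) with an adjusted p of 0.128 in limma. TCP1, the founding subunit, followed with 0.29 (adjusted p = 0.280), and its other probes gave 0.23 and 0.35. CCT3 gave 0.25, CCT8 0.09, CCT6B 0.03, CCT2 -0.05, CCT4 -0.06 and CCT5 -0.13, and CCT6P1 0.17. Neighbours in the order of these genes differed by less than their SEs of 0.12 to 0.31. CCT6B was dim, at 7.89 to 8.09, near the lowest values on the arrays. Other probes of CCT3, CCT6A and CCT6P1 had the opposite sign, -0.56, -0.16 and -0.13 (limma adjusted p for the CCT3 probe = 0.180), so no direction is given for them. CCT6A and its pseudogene CCT6P1 are near-identical copies, and their probes may share RNA.

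CCT7, the eta subunit, was lowest in the complex when each gene was read by its brightest probe, and had probes that disagreed in call. Its brightest probe read 12.56, 12.16 and 12.11 in the pull-down and 12.69 and 12.54 in the control, overlapping through pull-down array 1, with a difference of -0.33 and an adjusted p of 0.252. Its dimmest probe read 10.22, 9.55 and 9.56 against 10.78 and 10.80, with no overlap, and fell by 1.01 ± 0.23 (SE; limma adjusted p = 0.0405). The remaining probe lay between them at -0.52 (adjusted p = 0.163). The second CCT3 probe, at -0.56, was lower than the CCT7 probes at -0.33 and -0.52, so the rank of CCT7 depends on the probes used. Because arrays can differ in the whole complex, CCT7 was also set against the median of the 8 other subunits on the same array. Those subunits, the dim CCT6B among them, were each read by their brightest probe. This comparison was chosen after the values were seen. CCT7 was taken because it was lowest on the brightest probes, so the comparison cannot test that it was lower. For the brightest probe this within-array value was 1.64, 1.60 and 1.66 in the pull-down and 2.27 and 2.26 in the control, a difference of -0.63, and for the other probes the differences were -0.82 and -1.31. The groups did not overlap for any of the 3 probes, and the exact two-sided permutation test gave p = 0.1 for each, the smallest that 3 against 2 arrays allow (10 arrangements; 0.1 after adjustment over 7 such comparisons).

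All 5 measured prefoldin genes had positive differences, also after each rescaling tried, but 0 of 5 was called. Of all 9268 genes, 5069 had positive differences, and 7.1% were called higher. The median was 0.30, against 0.04 over all genes, and 0.19 after cyclic loess. PFDN4 had the largest difference: it read 8.87, 8.40 and 8.67 against 7.91 and 8.12, separated by group, 0.63 ± 0.17 (SE) with an adjusted p of 0.0631 in limma. PFDN5, at 0.32, was the other separated gene (12.76, 13.06 and 13.04 against 12.61 and 12.65; adjusted p = 0.172), while its second probe gave 0.05 with overlapping groups. PFDN1 gave 0.30 and PFDN6 0.06, and PFDN2 was lowest at 0.04, with an interval from -0.23 to 0.31.

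The remaining prefoldin subunit, VBP1 (prefoldin subunit 3), is named outside the PFDN series and so stands apart from the 69. It read 12.00, 11.88 and 11.99 in the pull-down and 11.06 and 11.01 in the control, and rose by 0.92 ± 0.11 (SE; limma adjusted p = 0.011). Its second probe gave 1.01 (adjusted p = 0.0211). Among 15 measured genes of 16 listed partners of chaperonin and prefoldin, VBP1 was called higher and RUVBL2 lower. Of all genes, 7.1% were called higher and 6.72% lower. RUVBL2, an ATPase that works with the prefoldin-like R2TP complex, fell by 0.70 (9.48, 9.64 and 9.50 against 10.29 and 10.18; limma adjusted p = 0.0198). Its partner RUVBL1 gave -0.82, separated by group, with an adjusted p of 0.0628. The tubulin cofactors TBCA to TBCE gave -0.56 to 0.28 and none was called.

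Of the 11 HSP70 and HSP110 genes, 1 was called, as lower, with 6.72% of all genes called lower. HSPA4, an HSP110-type nucleotide exchange factor for HSP70, read 10.70, 10.35 and 10.57 in the pull-down and 11.81 and 11.50 in the control. Every pull-down array was below both controls, and HSPA4 fell by 1.12 ± 0.16 (SE; 2.17-fold lower; limma adjusted p = 0.0164), the only member past 2-fold. Its second probe, 8.39, 8.53 and 8.30 against 9.59 and 8.88, was separated in the same direction at -0.83 with an adjusted p of 0.0628. The paralogs HSPH1 and HSPA4L gave 0.02 and -0.14, and neither was called. The call of HSPA4 was lost without pull-down array 2 and without either control array, and its difference stayed between -1.27 and -0.83 over 13 alternative settings.

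HSPA14, a ribosome-associated HSP70 relative, lay at the other end of the family at 0.85 ± 0.26 (SE). It read 10.31, 9.45 and 9.79 against 8.96 and 9.04, so the groups did not overlap, but the pull-down arrays spread widely and the adjusted p was 0.0792 in limma. HSPA8, the constitutive HSC70 with the promoter matches printed above, read 13.37, 13.68 and 13.30 against 14.35 and 13.77, a difference of -0.61 (adjusted p = 0.118), and its second probe gave -0.63. All its pull-down arrays were below both controls on either probe, although control 2 lay close to them.

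The heat-inducible HSP70 genes overlapped between the groups. HSPA1A read 12.20, 11.39 and 10.93 against 12.10 and 11.67 (-0.38, interval from -1.32 to 0.56), and the pull-down arrays alone spanned more than the difference of the means. HSPA1B gave -0.05, HSPA6 0.08 and HSPA7 0.00, the last from a dim probe at 7.82 to 8.54. HSPA1A with HSPA1B, and HSPA6 with HSPA7, are near-identical pairs whose probes may share RNA. HSPB1, the small heat shock protein HSP27 and the only HSPB gene measured, gave 0.31 (13.47, 12.71 and 13.21 against 12.75 and 12.89), overlapping between groups.

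**Figure D2:**
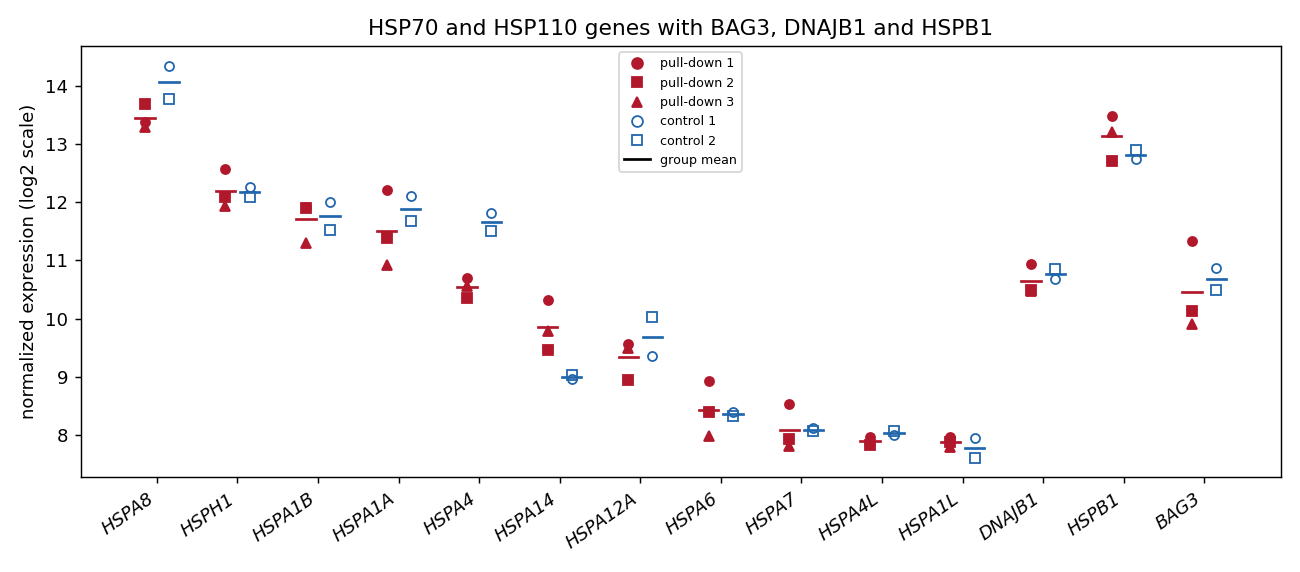
Normalized expression (log2 scale) on each array for the HSP70 and HSP110 genes, DNAJB1, HSPB1 and BAG3, with pull-down arrays filled, control arrays open and group means as bars. HSPA4 is the called gene, with all pull-down arrays below both controls, and pull-down array 1 lies highest of the pull-down arrays for 10 of the 11 HSP70 and HSP110 genes.

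The pull-down arrays differed among themselves in these families. Array 1 was the highest of the 3 in 44 of 69 members (63.8%) and in 44.4% of all genes; it was highest for 9 of 10 TRiC genes and 10 of 11 HSP70 and HSP110 genes. The value of array 1 minus the mean of arrays 2 and 3 had a median of 0.23 over the members and 0.04 over all genes, with 0.33 for TRiC, 0.34 for HSP70 and HSP110, 0.34 for J-domain A and B, and 0.02 for J-domain C. It was largest for BAG3, a stress-inducible BAG protein that routes clients to autophagy, at 1.32, then DNAJB6, a suppressor of protein aggregation, at 1.16 and HSPA1A at 1.05. Of the 10 measured stellate cell and myofibroblast markers, array 1 was the lowest of all 5 arrays for 6, among them COL1A1 (8.87, beside 11.53 and 10.13 and then 12.57 and 11.07), and the highest for 2, VIM and TAGLN. The mean log2 level of these markers was 10.26, 11.08 and 10.69 in the pull-down and 11.17 and 10.71 in the control, lowest on array 1. The part of this array in the results was not tested beyond leaving it out, which gave 6 members higher and 4 lower.

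J-domain proteins of classes A and B, the canonical HSP40 partners, gave 0 calls among 10 genes and a median of 0.03. Of all genes, 7.1% were called higher and 6.72% lower. DNAJB4 was highest, with 9.34, 9.01 and 9.02 against 8.56 and 8.88, separated by group, and a difference of 0.40 (adjusted p = 0.169 in limma); its second probe gave 0.46. DNAJA3, the mitochondrial member, was lowest at -0.27 with overlapping groups. DNAJB1, the heat-inducible HSP40, gave -0.13, and DNAJB6 gave 0.20 with a wide interval from -0.76 to 1.16, its pull-down values being 11.36, 10.15 and 10.25.

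Class C of the J-domain proteins, a mixed group that shares only the J domain, had a median of -0.11 and 2 of its 21 genes called in each direction (9.52%, with 7.1% of all genes called higher and 6.72% lower). DNAJC15, a J-domain protein of the inner mitochondrial membrane, read 9.95, 9.99 and 9.85 in the pull-down and 9.09 and 8.93 in the control. The groups were far apart compared with their spread, and DNAJC15 rose by 0.92 ± 0.12 (SE; 1.90-fold; limma adjusted p = 0.0128). Its close relative DNAJC19, part of the mitochondrial import motor, was separated in the same direction at 0.47 (8.71, 8.28 and 8.41 against 7.92 and 8.06) with an adjusted p of 0.108.

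DNAJC25-GNG10 is a readthrough locus that joins DNAJC25 to the neighbouring G protein gamma gene GNG10. Its probe read 9.02, 8.98 and 8.88 against 7.97 and 8.10 and rose by 0.93 ± 0.11 (SE; 1.91-fold; limma adjusted p = 0.0123). Whether it read GNG10 RNA was not tested. The probe of DNAJC25 itself, 8.91, 8.95 and 9.22 against 8.36 and 8.65, was also separated, at 0.52 with an adjusted p of 0.0788.

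DNAJC7, which binds HSP70 and HSP90 through tetratricopeptide repeats, read 10.48, 10.27 and 10.21 in the pull-down against 11.37 and 11.12 in the control. All pull-down arrays lay below both controls, and it fell by 0.93 ± 0.14 (SE; 1.90-fold lower; limma adjusted p = 0.0178). DNAJC28 read 13.50, 13.51 and 13.74 against 14.12 and 14.27, again without overlap, and fell by 0.61 ± 0.13 (SE; 1.53-fold lower; limma adjusted p = 0.0352). Leaving out any of the 5 arrays ended this call, and over the 13 alternatives its adjusted p reached 0.173. DNAJC9, a J-domain histone chaperone, lay at 12.02, 11.59 and 11.34 against 12.71 and 12.19, separated at -0.80 with an adjusted p of 0.0921. DNAJC13, an endosomal protein, gave -0.53 (adjusted p = 0.141), and the other class C genes ranged from -0.32 to 0.15.

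**Figure D3:**
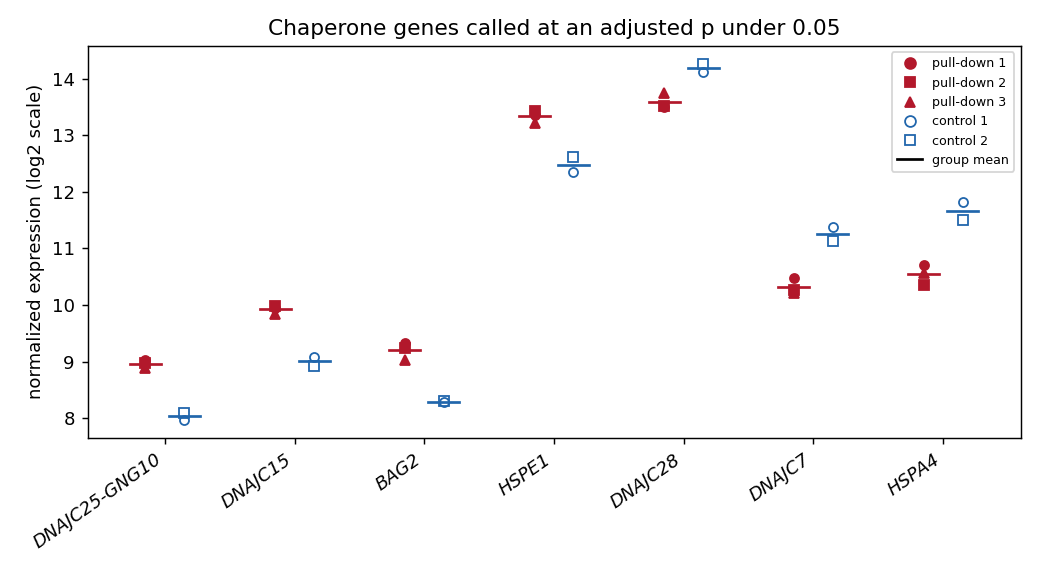
Normalized expression (log2 scale) on each array for the 7 chaperone genes called at an adjusted p under 0.05, with pull-down arrays filled, control arrays open and group means as bars. The groups do not overlap for any of the 7, with differences from -1.12 for HSPA4 to 0.93 for DNAJC25-GNG10. These genes were chosen by a test on the same arrays, so their separation is no further support. Of all genes, 27.8% had all pull-down arrays above both controls and 21.4% had all below.

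The mitochondrial chaperonin and its lid had differences of opposite sign. HSPE1, the cochaperonin HSP10 that caps the HSP60 barrel, read 13.37, 13.43 and 13.21 against 12.35 and 12.62 and rose by 0.85 ± 0.14 (SE; 1.81-fold; limma adjusted p = 0.0193). Its second probe, 12.73, 12.10 and 12.17 against 11.70 and 12.16, overlapped and gave 0.40 (adjusted p = 0.320). HSPD1, the HSP60 barrel, gave -0.30 with overlapping groups (13.67, 13.21 and 13.20 against 13.92 and 13.40; adjusted p = 0.413), while its second probe read 12.01, 11.80 and 11.84 against 12.99 and 12.46 and fell by 0.84 (limma adjusted p = 0.0368). For each gene, then, the call depends on the probe and the sign does not.

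HSPE1 minus HSPD1 within each array was compared after these values were seen. With the brightest probes it was -0.30, 0.22 and 0.01 in the pull-down and -1.57 and -0.79 in the control, a difference of 1.16. The other probe pairings gave differences of 1.69, 0.71 and 1.25, and in all 4 pairings every pull-down array lay above both controls. The exact two-sided permutation p was 0.1 each, again the smallest possible. The pairings reuse the same probes, and the genes were paired because their differences had opposite signs. The pairings are therefore not separate support, and the comparison cannot test the opposite signs. The 2 genes are a head-to-head pair: in RefSeq the start of HSPE1 (plus strand) lies 105 bases from a start of HSPD1 (minus strand), whose other annotated start is 539 bases away. The DNA between the nearer starts is shown because both genes are read outward from it (GRCh38.p14, chr2:197500275-197500378, 104 bases, plus strand as printed).
HSPD1 to HSPE1: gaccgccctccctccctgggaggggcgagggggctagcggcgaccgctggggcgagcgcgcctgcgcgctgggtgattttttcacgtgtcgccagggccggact
The HSPD1 match printed earlier was counted from the start farther from HSPE1 and lies outside this stretch.

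**Figure D4:**
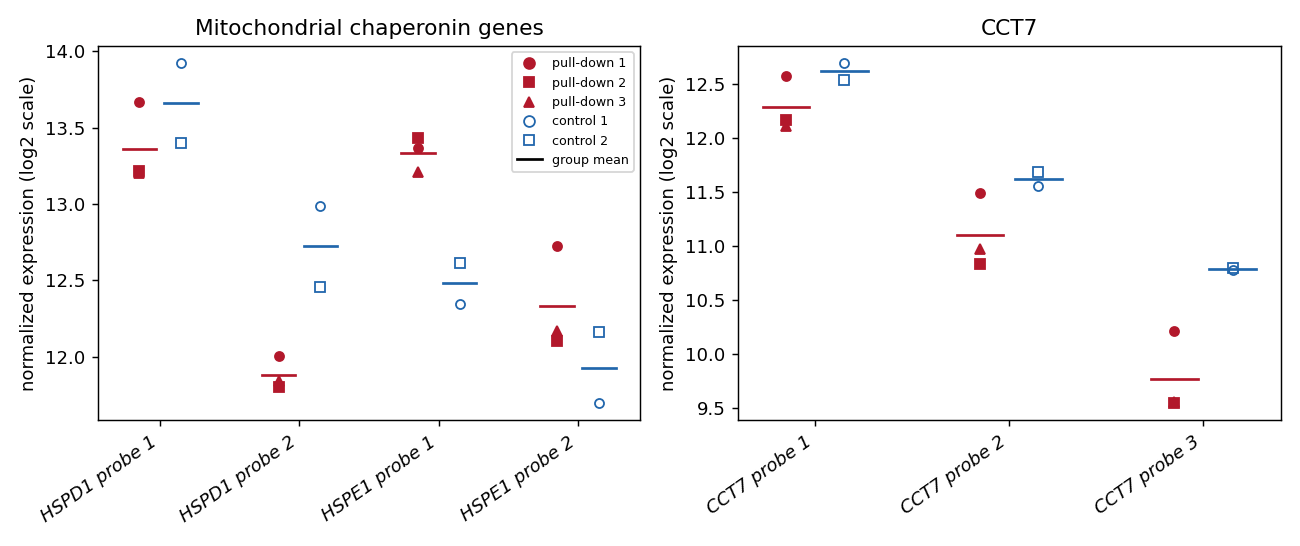
Normalized expression (log2 scale) on each array for every probe of HSPD1 and HSPE1 (left) and of CCT7 (right), with pull-down arrays filled, control arrays open and group means as bars. HSPE1 probes are higher and HSPD1 probes lower in the pull-down means, and the CCT7 difference grows from -0.33 to -1.01 between its probes.

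BAG proteins include nucleotide exchange factors that release clients from HSP70. Among 5 BAG genes, BAG2 was called, with 7.1% of all genes called higher. BAG2, which also restrains the chaperone-linked ubiquitin ligase CHIP, read 9.33, 9.23 and 9.03 against 8.28 and 8.30 and rose by 0.91 ± 0.13 (SE; 1.88-fold; limma adjusted p = 0.0161). BAG3 was lowest at -0.22: its pull-down values of 11.33, 10.12 and 9.91 enclosed both controls, 10.87 and 10.48, and its interval ran from -1.31 to 0.86. BAG6 gave 0.43 (adjusted p = 0.138), but its second probe gave -0.04, and the probes of BAG4 and BAG5 also differed in sign, all within 0.12 of 0. STUB1, which encodes CHIP, gave 0.01.

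The cochaperones of HSP90 differed among themselves. PTGES3, the p23 protein that holds the closed state of HSP90, read 12.84, 12.41 and 12.58 against 12.01 and 11.97, a separated difference of 0.62 ± 0.15 (SE) whose adjusted p of 0.0502 in limma was just past the threshold. STIP1, the HOP adaptor between HSP70 and HSP90, gave -0.14 (11.02, 11.26 and 11.23 against 11.26 and 11.36; adjusted p = 0.491). CDC37, which brings kinases to HSP90, gave -0.43 with a wide spread (13.10, 12.32 and 12.28 against 12.99 and 13.00; adjusted p = 0.339). HSPBAP1, named for its binding to HSPB1, gave 0.31 and was not called.

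HSP90 and further partners, which the symbols leave out, were measured for 16 of 19 listed genes, of which 2 were called higher and 2 lower (12.5% in each direction, with 7.1% and 6.72% of all genes). NUDCD2, a cochaperone of the NudC family, rose by 1.13 (11.23, 10.57 and 10.91 against 9.65 and 9.90; limma adjusted p = 0.0269), and its second probe by 0.99. SUGT1, an HSP90 cochaperone of the kinetochore, rose by 0.96 (9.66, 9.50 and 9.28 against 8.49 and 8.55; adjusted p = 0.0172). TRAP1, the mitochondrial HSP90, fell by 0.87 (9.002, 9.25 and 9.18 against 10.23 and 9.78; limma adjusted p = 0.0294), and UNC45A, a myosin chaperone, fell by 0.51 (adjusted p = 0.0357), with 0.74 on its second probe. The cytosolic HSP90 genes were not called. HSP90AB1 read 11.15, 11.74 and 11.38 against 12.75 and 12.10, a separated difference of -0.9998 (adjusted p = 0.0561), and HSP90AA1 gave -0.24 (adjusted p = 0.280).

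Of 9 listed genes of heat shock factors, their regulators and related genes, 5 were measured: EEF1A1, HSBP1, IER5, SERPINH1 and UBB. No heat shock factor gene was among them, as HSF1, HSF2 and HSF4 were not measured. Limma called 0 of the 5, with 7.1% of all genes called higher and 6.72% lower. At an unadjusted p under 0.05, 2 were lower, with 14.1% of all genes lower at that level. SERPINH1 gave -1.44 (adjusted p = 0.0929) and HSBP1, an inhibitor of heat shock factor, -0.79 (adjusted p = 0.154). The chaperones of the endoplasmic reticulum and mitochondria that the symbols set aside were measured for 7 of 8 genes. On their brightest probes they had a median of -0.13, against 0.04 over all genes. Limma called 0 of them, with 7.1% of all genes called higher and 6.72% lower. At an unadjusted p under 0.05, 1 was lower, with 14.1% of all genes lower at that level. HSPA5, the HSP70 of the endoplasmic reticulum, was lowest on these probes at -0.56 (adjusted p = 0.0893 in limma). It read 9.12, 9.60 and 9.51 against 10.03 and 9.90. A dimmer probe of HSPA13 gave -0.56 and was called lower (limma adjusted p = 0.0341). That probe read 7.98, 8.19 and 8.17 against 8.67 and 8.68. The other HSPA13 probes gave -0.28 and -0.11 and were not called.

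Probes of the same gene set a limit on several of these values. Of the 69 members, 18 had more than 1 probe, and in 6 of them (BAG4, BAG5, BAG6, CCT3, CCT6A and CCT6P1) the probes differed in sign. In 4 (CCT7, HSPA4, HSPD1 and HSPE1) they differed in call. BAG2, DNAJC7, DNAJC15, DNAJC25-GNG10 and DNAJC28 each rested on 1 probe. Arrays read each gene as a share of the RNA hybridized, so a rise of a gene and a fall of the remaining RNA cannot be told apart.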

How the data were processed

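The authors amplified RNA to labelled cRNA, hybridized it to Illumina HT-12 arrays and normalized it with lumi, per the submitters' processing notes, which give no version. The deposited values cover 14747 probes and are log2 or similar, on 5 arrays (3 pull-down, 2 control); no source used here says whether lumi took log2 or its variance-stabilizing transform, under which differences of dim probes would be understated. A table of unnormalized signals was left aside, since the names of its 10 per-sample columns match no label, so background and detection were not examined. Probes were named from GEO's platform annotation (1 symbol for 11970 probes, several for 1, none for 2776), and a gene was represented by its brightest probe (mean over the 5 arrays).

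Groups were compared with limma 3.58.1 (R 4.3.3; lmFit and eBayes, two-sided, no covariate), with Benjamini-Hochberg adjustment over all probes and a call at 0.05. Residual degrees of freedom were 3 and prior ones 2.75, with a median SE of 0.15; the number of arrays limits the precision. The fit was tested on simulated data. Named were every called member, the highest and lowest of each family, every TRiC gene and HSP90 cochaperone, and called partner genes; other genes were chosen after their values were seen. Members, lists and tests were chosen with earlier results of these data known. Alternatives were other scalings, a filter on dim probes, an intensity trend, other probe rules, a replicate block and leaving out each array.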

Additional observations from a re-analysis of the deposited data

How the results depend on the processing

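No called member changed sign under 13 alternatives, but all calls rested on few arrays. Against 4 members higher and 3 lower, the counts were 0 and 1 when a 2-fold change was also asked for, and leaving out single arrays gave 0 to 6 higher and 0 to 4 lower. They were 0 and 0 without pull-down array 2, without control 1 or without control 2, and 4 and 1 without pull-down array 3. Without control 1 limma called 0 of all probes (2958 at an unadjusted p under 0.05, 6 members higher and 4 lower at that level), against 2172 of 14747 with all arrays. Over all probes limma called 387 without pull-down array 2, 912 without pull-down array 3 and 2389 without pull-down array 1. Each of the 7 genes was called in 7 to 9 of the 13 alternatives. With the dimmest probe of each gene, HSPA4 and HSPE1 lost their calls and CCT7 and HSPD1 gained them, and with the mean over probes HSPE1 lost its call and PTGES3 gained one. PTGES3 was also called after median centring and without pull-down array 1, and PFDN4 and DNAJC19 with an intensity trend. Leaving out pull-down array 1 also brought calls of BAG6 as higher and of CDC37 and DNAJC9 as lower.

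Family medians moved in a few settings. The prefoldin median of 0.30 was 0.19 after cyclic loess, 0.19 with the mean over probes, 0.0637 with the dimmest probe and 0.16 to 0.35 without single arrays. The J-domain C median of -0.11 was -0.15 after cyclic loess, -0.21 after a filter on dim probes and -0.15 to -0.023 without single arrays. The BAG median of -0.06 was 0.18 after that filter, 0.0757 with the dimmest probe and -0.0874 to 0.0861 without single arrays. The mitochondrial chaperonin median of 0.28 was 0.0286 with the mean over probes and -0.22 with the dimmest. The causes were not tested.

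Replicate numbers do not establish a pairing: each lysate belonged to a pull-down, but no source used here says which, and only 2 numbers are shared. Deviations from the group means correlated at 0.039 for number 1 and -0.433 for number 2. With the replicate block, which drops pull-down array 3, 0 members were called higher and 0 lower (6 and 4 at an unadjusted p under 0.05; 215 probes in all), the J-domain C median was -0.15 and the BAG median 0.0501.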
